A study of Mus musculus with 10 samples.

Results

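The nuclear-encoded subunits of the mitochondrial respiratory chain were followed as 1 module in cultured mouse cortical neurons. Genes were taken by symbol: every gene whose symbol begins with Nduf (complex I and its assembly factors), Uqcr (complex III), Cox4 to Cox8 (complex IV) or Atp5 (complex V, the ATP synthase), together with Sdha, Sdhb, Sdhc and Sdhd (complex II). Only probe sets carrying 1 gene symbol were used, and the brightest stood for its gene. The rule found 89 of the 22180 genes measured. Of these, Uqcrh-ps1 and Atp5c1-ps are pseudogenes, and the other 87 genes are described by complex: 34 of complex I, 8 complex I assembly factors (Ndufaf1 to Ndufaf8), 4 of complex II, 7 of complex III, 17 of complex IV and 17 of complex V. Another 10 probe sets matched the rule but carried several symbols, so that Uqcr10, Ndufs6, Cox6c, Ndufb4 and Ndufb2 had no single-symbol probe set and are outside the 87.

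Neurons were dissected from the cortex of embryonic day 14.5 to 15.5 mice, wildtype or ATF4-deficient, and grown for 7 days in vitro in Neurobasal/B27 medium. They then received 5 µM sodium arsenite or vehicle for 12 hours, and total RNA was hybridised to Affymetrix mouse arrays. Wildtype neurons gave 2 arrays with vehicle and 4 with arsenite, and ATF4-deficient neurons 2 with each, all called biological replicates in the titles. The labels do not say if separate embryos, litters or cultures were used, so the p-values cover only the spread among these arrays. Which part of Atf4 was removed is not stated either.

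The respiratory chain passes electrons from NADH (complex I) and succinate (complex II) through ubiquinone to complex III, cytochrome c and complex IV, where oxygen is reduced. Complexes I, III and IV pump protons across the inner mitochondrial membrane, and the ATP synthase uses that gradient to make ATP, on which neurons depend heavily. ATF4 is the transcription factor that carries out much of the integrated stress response, and arsenite, a thiol-binding agent that causes oxidative stress, is known to activate that response; most subunits of the chain are encoded in the nucleus and imported.

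Values are log2 expression after robust multiarray averaging (RMA), and a difference of 1 is a 2-fold change. Atf4 checked the labels: it lay between 9.09 and 9.91 on the 6 wildtype arrays and between 7.48 and 7.70 on the 4 ATF4-deficient arrays. The mean of 10 neuron markers was 10.6 to 10.8 on every array, with Nefl called higher and Tubb3 lower for genotype averaged over treatments. The mean of 10 astrocyte markers was lower in ATF4-deficient cultures (7.22 to 7.72) than in wildtype ones (7.78 to 8.69), with 6 of the 10 called lower in that comparison and 9 of the 10 above the dim reference on at least 1 array. The oligodendrocyte lineage markers Olig1, Olig2 and Pdgfra (3 of 7), the interneuron marker Dlx2 (1 of 5) and the progenitor marker Sox2 (1 of 6) were called lower there too. The endothelium and pericyte marker Rgs5 (1 of 6) was called higher there and for genotype under vehicle. It was called lower for arsenite in ATF4-deficient neurons. Markers also differed with arsenite. In wildtype the astrocyte mean was 8.41 and 8.69 with vehicle and 8.16, 7.89, 7.78 and 8.37 with arsenite, whereas the ATF4-deficient arrays overlapped. Gfap was called lower for arsenite averaged over genotypes, and Pdgfra for that comparison and for arsenite in wildtype. Xist, the X-inactivation transcript of female cells, differed within groups: 7.88 and 11.9 in wildtype vehicle and 8.09, 6.95, 6.56 and 11.9 in wildtype arsenite. The dim reference, 6.64, is the 90th percentile of 1390 olfactory and vomeronasal receptor genes. In bulk RNA, fewer cells of a type and less RNA per cell cannot be told apart, and the part of these marker differences in the results on the respiratory chain was not tested. Of the 87 genes, 77 were above the dim reference on every array.

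Promoter windows of 300 bases (250 before to 50 after the start) show the DNA around the start of these genes. They were taken from RefSeq, GRCm38.p6, for the 72 of 87 genes that matched. The letters searched on both strands were GCGCA, any base, then GCGC (the motif of NRF-1, a factor known for nuclear control of respiratory genes), which can match both strands at the same place, CCGGAAG (ETS family, including GABP), AAGATGGC (YY1) and TGATGNAA (the C/EBP-ATF composite element used by ATF4). The stretches printed come from 1 or more genes of complexes I, II, IV and V and 1 assembly factor that are described in the results. Capitals mark NRF-1 letters and, as CTTCCGG, the reverse complement of the ETS letters. Each stretch runs 5′ to 3′ along its gene's strand: Ndufs5 at chr4:123718255-123718304 on the minus strand, Ndufa11 at chr17:56717682-56717731 on the plus strand, Ndufaf4 at chr4:24897950-24897999 on the plus strand, Sdhd at chr9:50603869-50603948 on the minus strand, Cox6a1 at chr5:115348959-115349140 on the minus strand, and Atp5h at chr11:115419931-115420080 on the minus strand.
Ndufs5: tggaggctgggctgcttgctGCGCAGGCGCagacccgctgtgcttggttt
Ndufa11: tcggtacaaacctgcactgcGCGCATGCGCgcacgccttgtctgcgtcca
Ndufaf4: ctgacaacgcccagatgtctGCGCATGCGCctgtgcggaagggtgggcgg
Sdhd: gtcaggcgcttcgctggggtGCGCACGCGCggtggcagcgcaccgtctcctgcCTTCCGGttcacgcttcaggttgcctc
Cox6a1: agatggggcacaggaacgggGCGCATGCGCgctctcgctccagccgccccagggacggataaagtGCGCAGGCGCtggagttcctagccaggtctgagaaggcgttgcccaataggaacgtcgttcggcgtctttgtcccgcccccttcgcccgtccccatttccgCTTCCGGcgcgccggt
Atp5h: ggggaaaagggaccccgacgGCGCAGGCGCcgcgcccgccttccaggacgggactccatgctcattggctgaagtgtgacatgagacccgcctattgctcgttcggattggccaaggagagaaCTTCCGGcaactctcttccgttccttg

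Of the 77 windows of respiratory chain genes, 18 (23.4%) held the NRF-1 letters, against 4.60% of all 32851 windows. ETS letters stood in 19 windows (24.7% against 8.86%) and YY1 letters in 10 (13.0% against 2.75%). At least 1 of these motifs was found in the windows of 40 genes, and 53.2% of the 77 windows held one, against 14.7% of all windows. Some of these matches lay after the start, as did the YY1 letters of Ndufs4 and Ndufb8. Atp5h, Atp5k, Cox6a1 and Sdhd held both NRF-1 and ETS letters. The C/EBP-ATF letters were in 0 of the 77 windows and in 3.97% of all windows, which says only that these letters are not in this stretch.

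**Figure D1:**
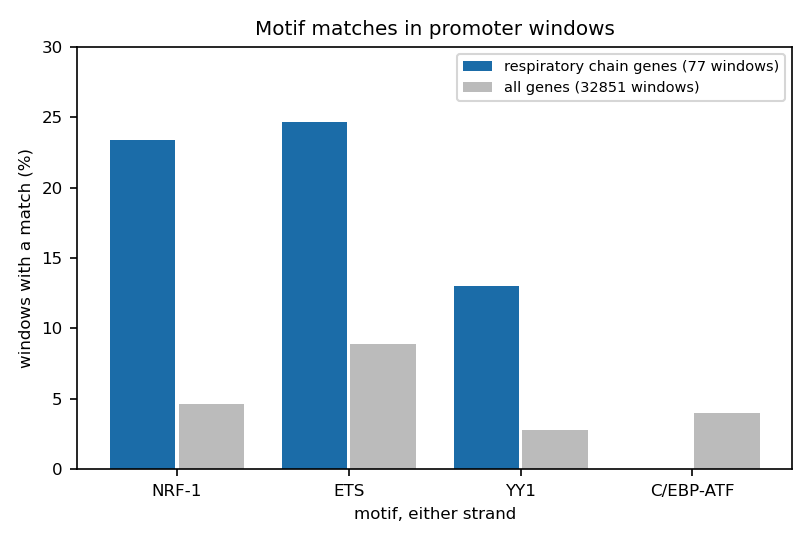
Percentage of promoter windows (y axis) holding each motif on either strand (x axis), for respiratory chain genes (blue) and all genes (grey). NRF-1 letters were in 23.4% of the 77 windows against 4.60% of all, and C/EBP-ATF letters in 0.

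No respiratory chain gene passed the test in any comparison of the 4 groups, and single estimates reached at most 0.47 upward and -0.51 downward between groups. In limma with Benjamini-Hochberg adjustment over all 22180 genes, 0 of the 87 genes passed an adjusted p of 0.05 for arsenite in wildtype neurons, where 0.482% of all genes did. The count was also 0 of 87 for arsenite in ATF4-deficient neurons (1.15% of all genes). The genotypes were compared under vehicle and under arsenite, again with 0 of 87 (0.433% and 0.343% of all genes). Averaging to gain precision gave 0 of 87 for arsenite over both genotypes, where 3.07% of all genes passed, and 0 of 87 for genotype over both treatments, where 1.82% did. For the interaction, the arsenite difference in ATF4-deficient neurons less that in wildtype, the count was 0 among the 87 and 0 among all genes.

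At an unadjusted p under 0.05, limma gave 3 of 87 genes for arsenite in wildtype (3.45%, against 10.9% of all genes) and 3 for arsenite in ATF4-deficient neurons (3.45% against 12%). Genotype under vehicle gave 3 (3.45% against 10.9%) and genotype under arsenite 10 (11.5% against 12.1%). The interaction gave 3 (3.45% against 6%), arsenite averaged over genotypes 9 (10.3% against 16.1%) and genotype averaged over treatments 7 (8.05% against 16.3%). These counts moved with single arrays. With 1 array left out they ran from 1 (without wildtype vehicle replicate 1) to 5 (without wildtype arsenite replicate 1) for arsenite in wildtype, and from 2 to 11 in ATF4-deficient neurons (without arsenite replicate 2 or 1 of that genotype). Genotype under vehicle gave 12, all lower, without ATF4-deficient vehicle replicate 1 and 2 to 5 without any other array. Genotype under arsenite gave 18 without ATF4-deficient arsenite replicate 1 and 3 without replicate 2, and the interaction 6 and 0. Genotype averaged over treatments gave 18 and 3 without those same arrays, and 15, all lower, without ATF4-deficient vehicle replicate 1. With the replicate number as a block, which in effect drops wildtype arsenite replicates 3 and 4, it gave 18 (20.7% of the 87), of which 16 were lower. Arsenite averaged gave 4 to 10. The shares over all genes belong to the fit on all 10 arrays without a block. Those of the refits are not given, so the counts of the refits cannot be set against a background. The shares describe the genes in these arrays, genes are not independent of each other, and no test of the module was made.

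The intervals show what size of change the arrays leave room for. For arsenite in wildtype neurons the 95% interval of 78 of the 87 genes lay within 0.5 log2 (1.41-fold) of no difference, and for all 87 it lay within 1 log2. Within 0.5 log2 were 65 genes for arsenite in ATF4-deficient neurons. The numbers were 60 for genotype under vehicle and 67 for genotype under arsenite. For arsenite averaged over genotypes the number was 82, and for genotype averaged over treatments 80. The interaction was the least precise, with 43 within 0.5 log2 and 86 within 1 log2.

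The median difference over the 87 genes was -0.003 for arsenite in wildtype neurons (all genes -0.017), with 43 of 87 above 0 and single estimates from -0.27 to 0.33. With 1 array left out that median ran from -0.058 to 0.021. In ATF4-deficient neurons the median for arsenite was 0.035 (all genes -0.011), with 51 above 0 and a range of -0.41 to 0.47. For genotype under vehicle it was -0.055 (all genes 0.0037), with 31 above 0 and a range of -0.38 to 0.28. This value turned with 1 array: it was 0.057 without ATF4-deficient vehicle replicate 2 and -0.151 without replicate 1. The arsenite median in ATF4-deficient neurons uses the same arrays and was -0.066 and 0.125 without them in the same order. For genotype under arsenite it was -0.011 (all genes 0.015), with 43 above 0 and a range of -0.51 to 0.32. The interaction had a median of 0.049 (all genes 0.021), which was -0.056 and 0.154 without the same 2 arrays. The averaged medians were -0.0018 for arsenite (all genes -0.014) and -0.046 for genotype (all genes 0.015). With 1 array left out they ran from -0.047 to 0.038 and from -0.085 to 0.010, with the extremes from the ATF4-deficient vehicle arrays. Both changed sign with those arrays. The arsenite value was also above 0 without wildtype vehicle replicate 1 (0.020) or wildtype arsenite replicate 3 (0.0043) or 4 (0.0063). Without ATF4-deficient arsenite replicate 2 it was 0.011.

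**Figure D2:**
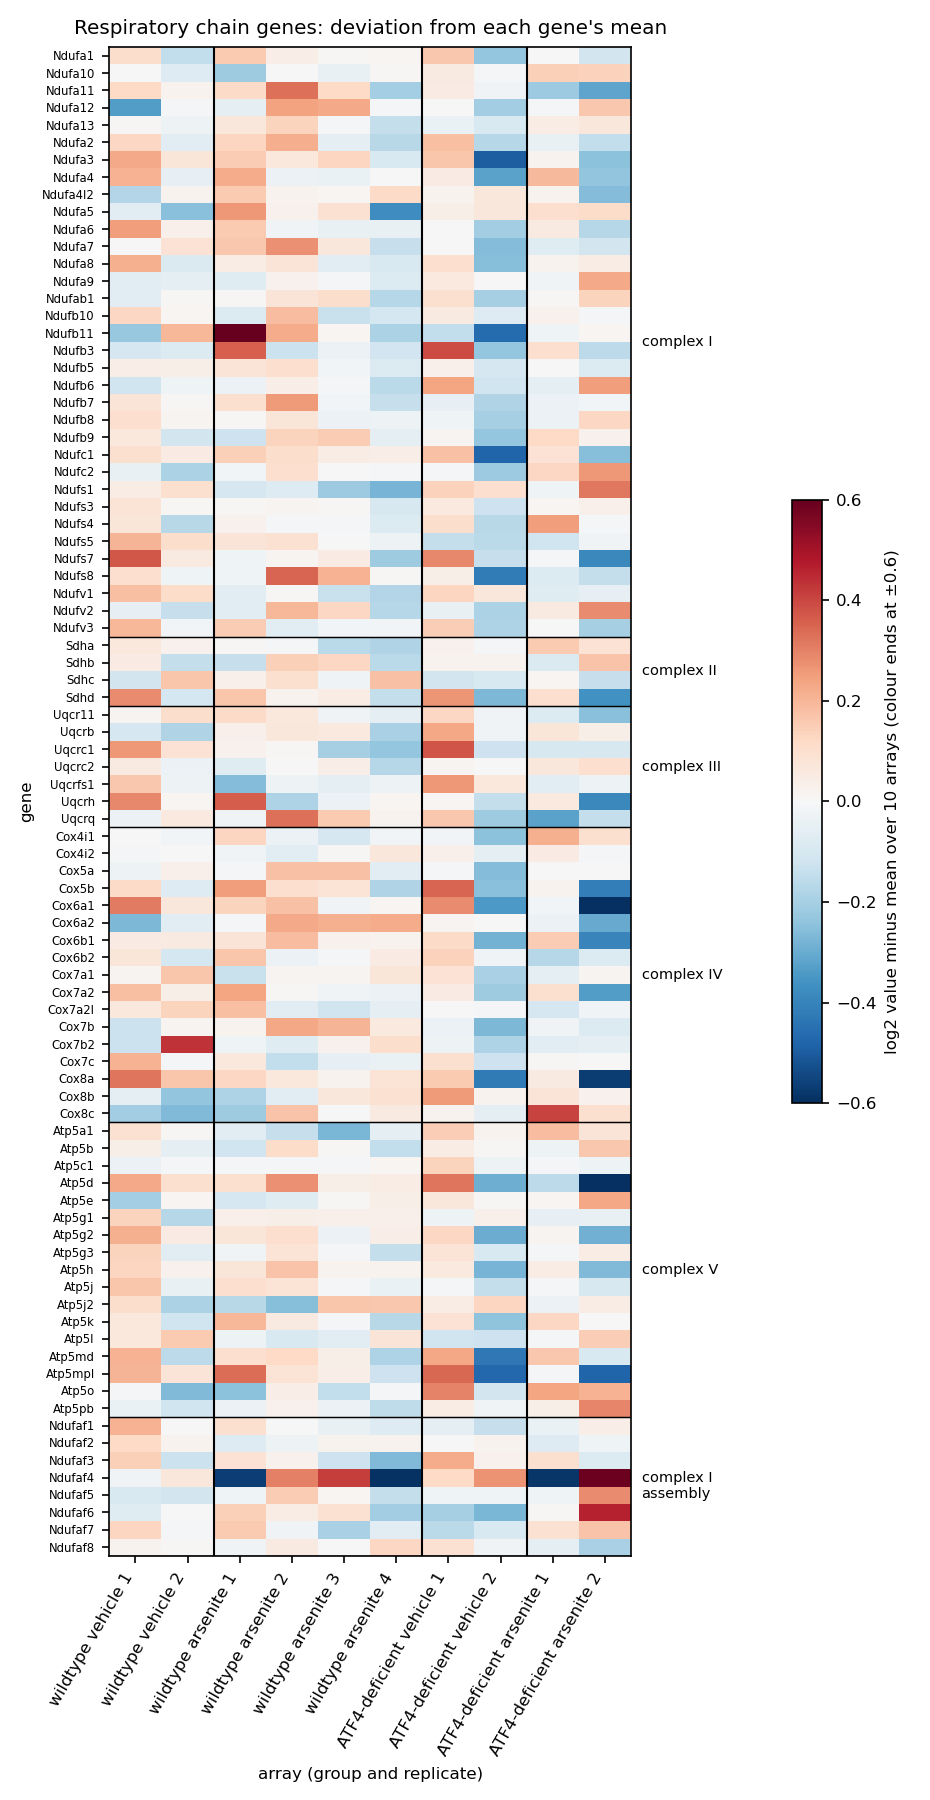
Each row is 1 of the 87 genes, ordered by complex, and each column 1 of the 10 arrays. Colour gives the log2 value minus that gene's mean over the arrays, from blue (lower) to red (higher), and ends at 0.6. No block of a complex takes 1 colour in a whole group; ATF4-deficient vehicle replicate 2 is mostly blue, with a median of -0.137 over the genes.

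Groups separated for some genes without passing the test. For arsenite in wildtype, the 2 vehicle and 4 arsenite arrays did not overlap for 11 of the 87 genes (12.6%, against 20.6% of all genes). Arsenite in ATF4-deficient neurons separated 28 (32.2% against 38.8%), genotype under vehicle 24 (27.6% against 42.5%) and genotype under arsenite 19 (21.8% against 18.5%). The 2 arsenite comparisons share no arrays, whereas each genotype comparison shares a group with both of them.

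**Figure D3:**
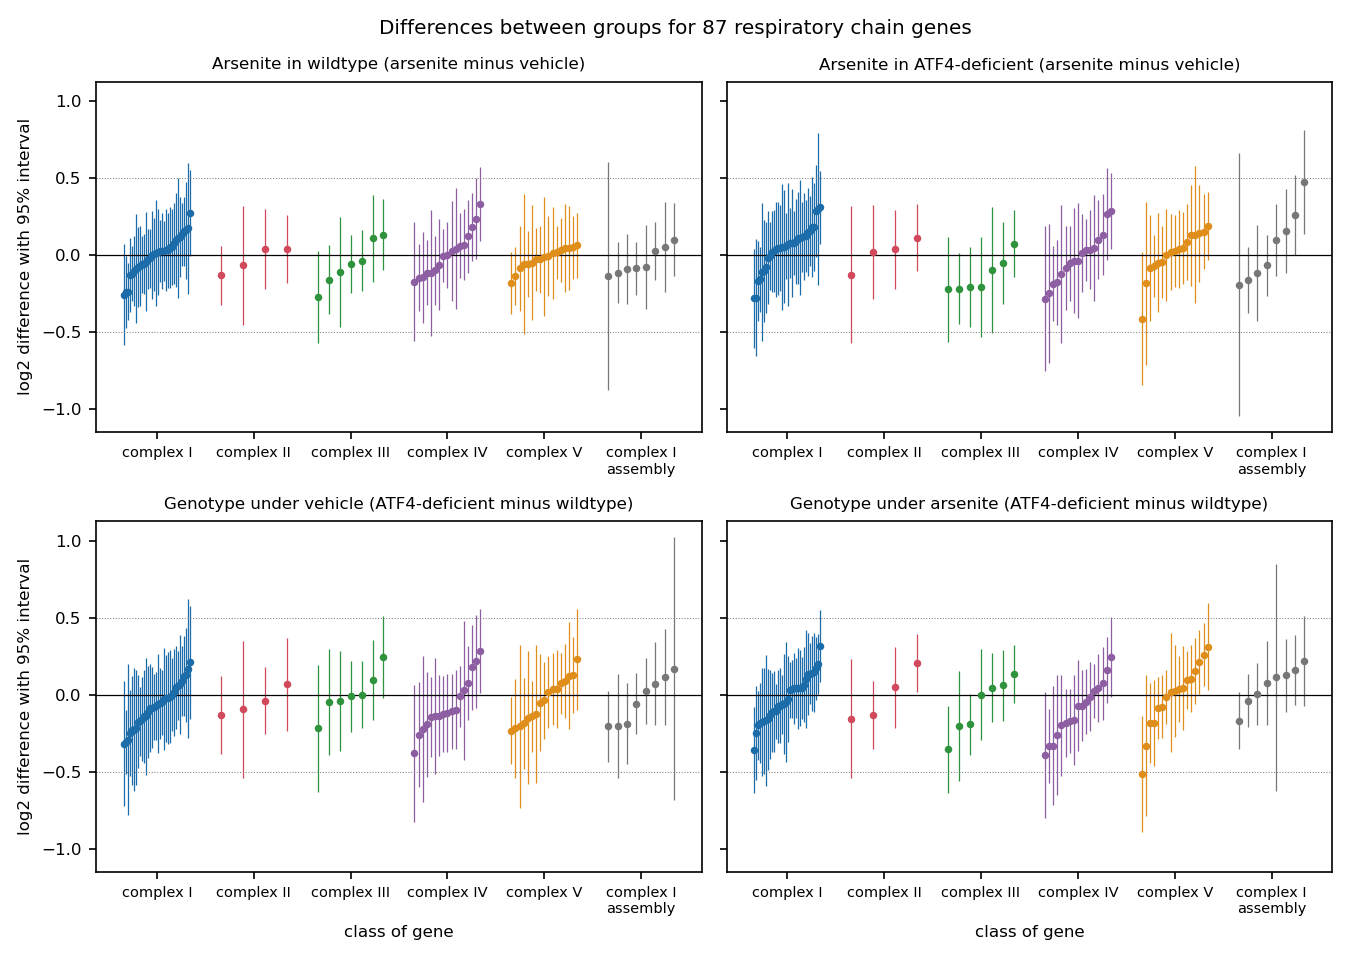
Log2 difference (y axis) with its 95% limma interval for each of the 87 genes, ordered within its class (x axis), for arsenite minus vehicle in each genotype and ATF4-deficient minus wildtype under each treatment. Dotted lines mark 0.5 log2 either way; the estimates run from -0.51 (Atp5d, genotype under arsenite) to 0.47 (Ndufaf6, arsenite in ATF4-deficient neurons).

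Complex I accepts electrons from NADH. Its 34 genes had a median difference of 0.015 for arsenite in wildtype and 0.063 in ATF4-deficient neurons. Above 0 were 20 (58.8%, against 44.9% of all genes) and 25 (73.5% against 47.2%). Of the 34, 32 were lower in ATF4-deficient vehicle replicate 2 than in replicate 1. The 6 measured genes of the catalytic core were Ndufs1, Ndufs3, Ndufs7, Ndufs8, Ndufv1 and Ndufv2. Their medians were -0.148 for arsenite in wildtype and 0.041 in ATF4-deficient neurons. Ndufv1, which carries the flavin that takes the electrons from NADH, was at 9.15 and 9.07 on the wildtype vehicle arrays and at 8.90, 8.97, 8.83 and 8.79 on the wildtype arsenite arrays. It was at 9.09 and 9.03 in ATF4-deficient neurons with vehicle, and 8.89 and 8.91 in those with arsenite. In both genotypes every arsenite array was lower than every vehicle array. The difference in wildtype was -0.24 ± 0.08 (SE; unadjusted p = 0.0159, limma adjusted p = 0.299), and averaged over genotypes it was -0.20 ± 0.06 (adjusted p = 0.14). Ndufv1 was singled out after its values were seen.

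Ndufs1, the largest iron-sulfur subunit of the same electron-input module, measured 8.37 and 8.42 in wildtype vehicle and at 8.22, 8.24, 8.10 and 8.04 in wildtype arsenite. In ATF4-deficient neurons it was at 8.46 and 8.42 with vehicle and at 8.30 and 8.64 with arsenite. The wildtype arsenite arrays were thus the 4 lowest. Their difference from vehicle was -0.24 ± 0.11 (SE; limma adjusted p = 0.434), and the genotype difference under arsenite, the highest estimate of complex I, was 0.32 ± 0.11 (adjusted p = 0.276). Its interaction was 0.27 with an interval of -0.09 to 0.62. The wildtype arsenite comparison of Ndufs1 was singled out after its values were seen. A second Ndufs1 probe set, which also carries the symbol Ino80dos, gave the opposite sign for arsenite in wildtype, 0.45 ± 0.14 (adjusted p = 0.275 when every annotated probe set was tested, an alternative added after the data were seen).

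Ndufa12, an accessory subunit, had the highest estimate of complex I for arsenite in wildtype, 0.27 (interval -0.01 to 0.55). The lowest was that of Ndufs7, an iron-sulfur subunit of the catalytic core next to the quinone site, at -0.26 (-0.58 to 0.07). In ATF4-deficient neurons Ndufc2, a membrane-arm subunit, had the highest estimate of complex I. It was at 10.24 and 10.03 with vehicle and at 10.38 and 10.51 with arsenite, a difference of 0.31 ± 0.11 (SE; limma adjusted p = 0.256). In wildtype it was at 10.20 and 10.06 with vehicle and 10.23 to 10.35 with arsenite, so the groups did not overlap in either genotype. Averaged over genotypes the difference was 0.22 ± 0.07 (adjusted p = 0.135), a comparison singled out after its values were seen.

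Ndufa11, another membrane-arm subunit, measured 9.22 and 9.12 in wildtype vehicle, 9.22, 9.43, 9.22 and 8.90 in wildtype arsenite, 9.15 and 9.08 in ATF4-deficient neurons with vehicle, and 8.89 and 8.79 in those with arsenite. The last 2 arrays were the lowest of the 10. The genotype difference under arsenite was -0.36 ± 0.13 (SE; limma adjusted p = 0.3) and the arsenite difference in ATF4-deficient neurons -0.28 ± 0.15 (adjusted p = 0.487). Its promoter stretch is among those printed, with NRF-1 letters.

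For genotype under vehicle, 10 of 34 complex I genes were above 0 (29.4%, against 51.1% of all genes), with a median of -0.065. Estimates ran from Ndufa3 at -0.32 ± 0.19 to Ndufa5 at 0.21 ± 0.17. Over the 34 genes the median deviation from each gene's mean was 0.052 and -0.183 in ATF4-deficient vehicle replicates 1 and 2. In wildtype vehicle it was 0.074 and -0.001. Ndufa3 measured 10.74 and 10.59 in wildtype vehicle and at 10.68 and 10.02 in ATF4-deficient vehicle, and its difference was 0.016 without the latter group's replicate 2. Ndufs5, whose printed promoter stretch holds NRF-1 letters, showed the lowest unadjusted p of the 87 for that comparison: 6.77 and 6.67 in wildtype vehicle against 6.43 and 6.41 in ATF4-deficient vehicle, a difference of -0.31 ± 0.09 (limma adjusted p = 0.226). Under arsenite it was at 6.65, 6.66, 6.57 and 6.54 in wildtype and 6.45 and 6.55 in ATF4-deficient neurons. These values lie on either side of the dim reference, and the gene was singled out after its values were seen. A brighter probe set, which also carries the symbol Ndufs5-ps, gave -0.17 ± 0.17 for genotype under vehicle (limma adjusted p = 0.793 when every annotated probe set was tested).

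**Figure D4:**
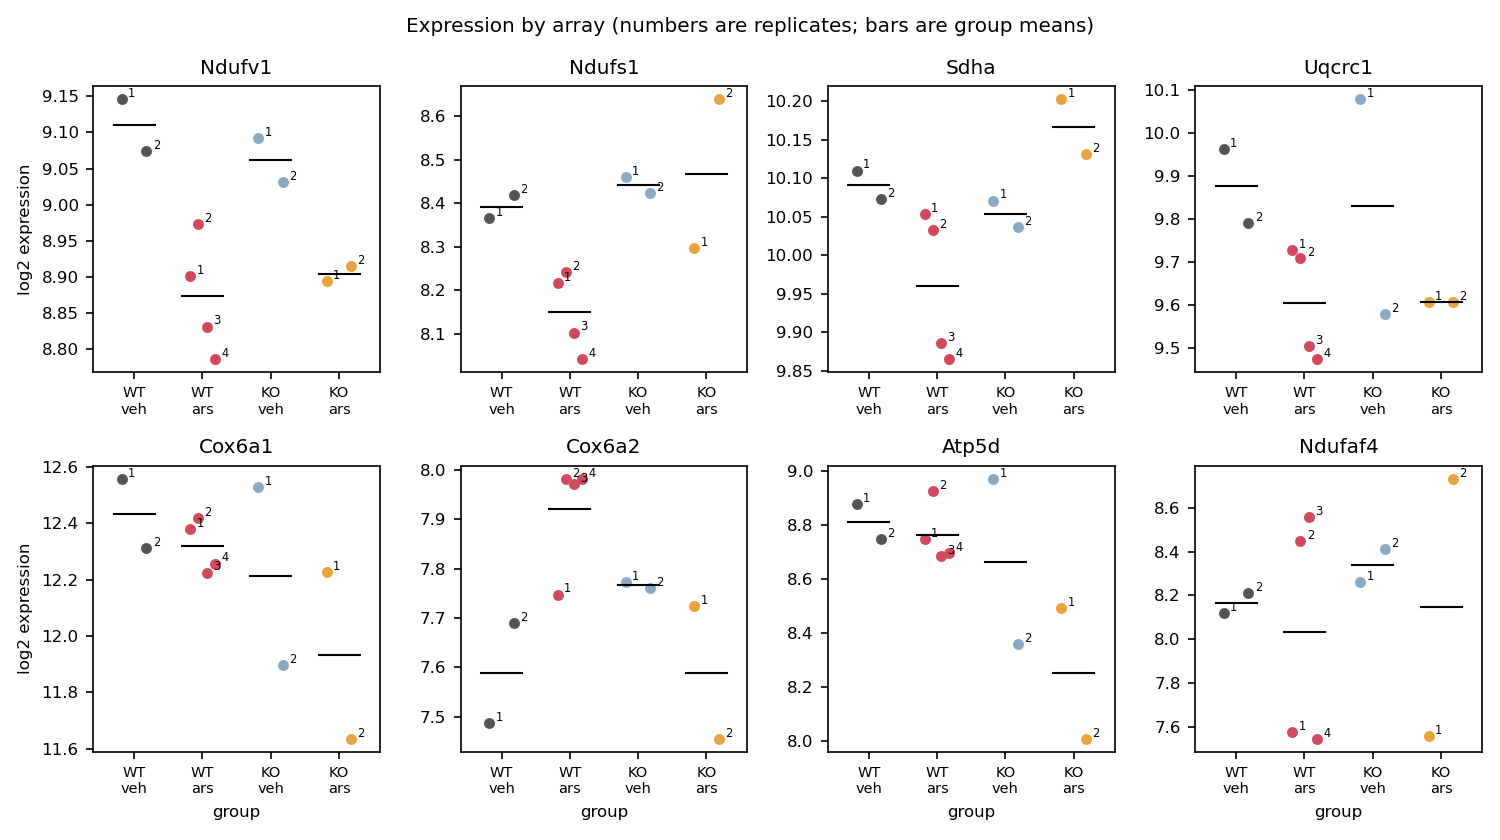
Log2 expression (y axis) of 8 genes by group (x axis: WT, wildtype; KO, ATF4-deficient; veh, vehicle; ars, arsenite), with 1 point per array numbered by replicate and a bar at each group mean. The y axes differ between genes. Ndufv1 was lower on every arsenite array than on every vehicle array, whereas Ndufaf4 spanned 7.55 to 8.73 with both extremes among the arsenite arrays.

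Complex II, succinate dehydrogenase, is also an enzyme of the tricarboxylic acid cycle. Sdha, its flavoprotein, measured 10.11 and 10.07 in wildtype vehicle and 10.05, 10.03, 9.89 and 9.87 in wildtype arsenite. It was at 10.07 and 10.04 in ATF4-deficient neurons with vehicle, and 10.20 and 10.13 in those with arsenite. Arsenite arrays were therefore all lower than vehicle in wildtype and all higher in ATF4-deficient neurons, with differences of -0.13 ± 0.09 and 0.11 ± 0.10 (SE). The test of that contrast, the interaction, gave 0.25 ± 0.13 (interval -0.05 to 0.54; limma adjusted p = 0.845). The genotype difference under arsenite was 0.21 ± 0.09 (adjusted p = 0.37). Sdhb, the iron-sulfur subunit, and Sdhc, a membrane anchor, had estimates between -0.13 and 0.07 for genotype under vehicle. Sdhd, the other anchor, varied within groups as much as between them: 9.22 and 8.83, 9.10, 8.96, 8.98 and 8.80, 9.20 and 8.67, and 9.04 and 8.57 in the order vehicle then arsenite, first for wildtype and then for ATF4-deficient neurons.

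Complex III passes electrons from ubiquinol to cytochrome c. Its 7 genes had a median of -0.060 for arsenite in wildtype and -0.206 in ATF4-deficient neurons, where 1 of 7 (Uqcrc2) was above 0. None of the 7 passed in either comparison, and leaving out ATF4-deficient vehicle replicate 1 turned the estimate of Uqcrc1 there from -0.22 to 0.027. Uqcrc1, a core subunit, measured 9.96 and 9.79 in wildtype vehicle and 9.73, 9.71, 9.50 and 9.47 in wildtype arsenite, so that the arsenite arrays were all lower. In ATF4-deficient neurons it was at 10.08 and 9.58 with vehicle and 9.61 on both arsenite arrays. The wildtype difference was -0.27 ± 0.14 (SE; limma adjusted p = 0.504), the lowest of the 87. Averaged over genotypes it was -0.25 ± 0.10 (adjusted p = 0.265).

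Uqcrfs1, the Rieske iron-sulfur protein, was at -0.18 ± 0.08 for arsenite averaged over genotypes (limma adjusted p = 0.272) and was singled out after its values were seen. Uqcrq, a small subunit, had the lowest estimate of the complex for genotype under arsenite. It was at 8.13, 8.49, 8.31 and 8.18 in wildtype arsenite and at 7.83 and 8.01 in ATF4-deficient arsenite, a difference of -0.35 ± 0.13 (adjusted p = 0.311), with the groups apart. Uqcrc2, the other core subunit, was at 0.14 ± 0.09 in the same comparison. Uqcrb, which lies near the quinone site, had the complex's highest estimate for genotype under vehicle, 0.25 ± 0.12, and Uqcrh, the hinge protein, the lowest, -0.22 ± 0.19. A dimmer Uqcrb probe set, which also carries the symbol Gm10767, gave the opposite sign for that comparison, -0.11 ± 0.18. The pseudogene Uqcrh-ps1 was at -0.34 ± 0.13 for arsenite in wildtype (adjusted p = 0.339), with values between 6.08 and 6.74.

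Complex IV, cytochrome c oxidase, holds several subunits that come as a ubiquitous and a tissue-restricted isoform. Its 17 genes had medians of 0.0013 and -0.036 for arsenite in wildtype and ATF4-deficient neurons. For genotype under vehicle and under arsenite the medians were -0.117 and -0.070. In each genotype comparison 5 of 17 were above 0 (29.4%, against 51.1% and 54.3% of all genes). All 17 were lower in ATF4-deficient vehicle replicate 2 than in replicate 1. Their median deviation from each gene's mean was 0.047 in that replicate 1 and -0.193 in replicate 2, against 0.014 and 0.017 in wildtype vehicle. Cox6a2, an isoform known from heart and skeletal muscle, measured 7.49 and 7.69 in wildtype vehicle and 7.75, 7.98, 7.97 and 7.98 in wildtype arsenite, all 4 higher. It was at 7.77 and 7.76 in ATF4-deficient neurons with vehicle, and 7.72 and 7.46 in those with arsenite, both lower. The wildtype difference was 0.33 ± 0.11 (SE; limma adjusted p = 0.257), the highest of the 87. The interaction was -0.51 ± 0.17 (interval -0.87 to -0.15), the lowest of the 87 with an unadjusted p of 0.0105 and an adjusted p of 0.753. Striated muscle markers had a mean of 6.69 to 6.92 over the arrays, and 0 of 7 passed in any comparison.

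Its ubiquitous partner Cox6a1, the gene with the NRF-1 and ETS letters printed, measured 12.56 and 12.31 in wildtype vehicle and at 12.38, 12.42, 12.22 and 12.26 in wildtype arsenite. In ATF4-deficient neurons it was at 12.53 and 11.90 with vehicle and 12.23 and 11.64 with arsenite, so the replicates of a group lay farther apart than the group means. The genotype difference under arsenite was -0.39 ± 0.19 (limma adjusted p = 0.44). Cox8a measured 10.92 and 10.76 in wildtype vehicle and at 10.75 and 10.17 in ATF4-deficient vehicle, a difference of -0.38 ± 0.20 (adjusted p = 0.556). It was at 10.72, 10.66, 10.62 and 10.68 in wildtype arsenite and 10.65 and 10.03 in ATF4-deficient arsenite. Cox4i1, the regulatory subunit, had the highest estimate of complex IV for arsenite in ATF4-deficient neurons, from 9.66 and 9.43 with vehicle to 9.89 and 9.78, a difference of 0.29 ± 0.11 (adjusted p = 0.326).

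Of 8 tissue-restricted isoforms, Cox7b2, Cox8b and Cox8c (isoforms known from testis or muscle) and Ndufa4l2, a hypoxia-induced relative of Ndufa4, were under the dim reference on all 10 arrays. Cox6b2 and Cox7a1 lay on either side of it, between 6.51 and 6.87, and Cox4i2, the hypoxia-linked isoform, was above it at 7.47 to 7.60. Together the 8 had a median of 0.092 for arsenite in wildtype and -0.027 in ATF4-deficient neurons. Their 7 ubiquitous partners (Cox4i1, Cox6a1, Cox6b1, Cox7a2, Cox7b, Cox8a and Ndufa4, the last now counted by many as a complex IV subunit) had medians of -0.043 and -0.036. For genotype the partners' medians were -0.191 under vehicle and -0.181 under arsenite, with 0 of 7 called. Their mean per array was 10.3 and 10.3 in the replicates 1 of ATF4-deficient vehicle and arsenite but 9.94 and 9.94 in the replicates 2, against 10.3 to 10.4 on wildtype arrays.

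Complex V makes ATP through a catalytic F1 head on a membrane-bound rotor. Its 17 genes had medians of -0.010 and 0.025 for arsenite in wildtype and ATF4-deficient neurons, and of -0.036 and 0.027 for genotype under vehicle and arsenite. Among the 5 F1 subunits, Atp5a1 (alpha) measured 11.04 and 10.96 in wildtype vehicle and 10.89, 10.82, 10.68 and 10.90 in wildtype arsenite. It was at 11.10 and 10.98 in ATF4-deficient neurons with vehicle, and 11.14 and 11.03 in those with arsenite, the last 2 above all 4 wildtype arsenite arrays. That genotype difference, singled out after its values were seen, was 0.26 ± 0.09 (SE; limma adjusted p = 0.3), and the arsenite difference in wildtype -0.18 ± 0.09 (adjusted p = 0.522).

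Atp5d (delta) had the lowest estimate of the 87 for genotype under arsenite. It measured 8.88 and 8.75 in wildtype vehicle, 8.75, 8.92, 8.68 and 8.69 in wildtype arsenite, 8.97 and 8.36 in ATF4-deficient neurons with vehicle, and 8.49 and 8.01 in those with arsenite. Both of the last arrays were below all 4 wildtype arsenite arrays, a difference of -0.51 ± 0.17 (limma adjusted p = 0.276). Its dimmer probe set gave -0.02 for the same comparison, so the gene's probe sets disagree. Atp5b (beta), Atp5c1 (gamma) and Atp5e (epsilon) had estimates between -0.03 and 0.06 for arsenite in wildtype.

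In the stator, Atp5o, which links F1 to the membrane part, had the highest complex V estimate in both genotype comparisons, 0.23 ± 0.15 under vehicle and 0.31 ± 0.13 under arsenite (limma adjusted p = 0.645 and 0.367). It measured 7.62 and 7.36 in wildtype vehicle, 7.37, 7.66, 7.47 and 7.62 in wildtype arsenite, 7.92 and 7.51 in ATF4-deficient neurons with vehicle, and 7.86 and 7.83 in those with arsenite. Atp5l (g), a membrane subunit, measured 9.84 and 9.93 in wildtype vehicle and 9.66 on both ATF4-deficient vehicle arrays, a difference of -0.23 ± 0.10 (adjusted p = 0.434). With arsenite it was at 9.75, 9.69, 9.71 and 9.86 in wildtype and at 9.77 and 9.93 in ATF4-deficient neurons. The 3 genes of the c ring, Atp5g1, Atp5g2 and Atp5g3, had medians between -0.077 and -0.036 in these 4 comparisons.

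Among the complex I assembly factors, Ndufaf4 had the widest scatter of the 87 genes, and Ndufaf2 the narrowest (pooled within-group SD 0.046). Ndufaf4, whose promoter stretch holds NRF-1 letters, measured 8.12 and 8.21 in wildtype vehicle and 8.26 and 8.41 in ATF4-deficient vehicle, but at 7.58, 8.45, 8.56 and 7.55 in wildtype arsenite and at 7.56 and 8.73 in ATF4-deficient arsenite. Its pooled within-group SD was 0.515, against a median of 0.130 over the 87. Arsenite arrays of both genotypes thus lay above and below every vehicle array, and the differences of -0.13 ± 0.34 and -0.19 ± 0.39 (SE) had intervals reaching from -0.87 to 0.60 and from -1.04 to 0.66. Ndufaf6 had the highest estimate of the 87 for arsenite in ATF4-deficient neurons, 7.08 and 7.01 with vehicle against 7.29 and 7.75 with arsenite, a difference of 0.47 ± 0.15 (limma adjusted p = 0.217). In wildtype it was at 7.21 and 7.29 with vehicle and at 7.43, 7.33, 7.38 and 7.07 with arsenite. Both factors were singled out after their values were seen.

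Genes that build or regulate the chain outside the symbol rule were read beside it. Of 39 other assembly factors, 2 rose and 0 fell with arsenite averaged over genotypes (5.13%, against 3.07% of all genes, so near the background), and 0 passed in the other 6 comparisons. Tmem126b, a complex I assembly factor, measured 7.03 and 6.96 in wildtype vehicle, 7.46, 7.41, 7.41 and 7.15 in wildtype arsenite, 7.24 and 7.25 in ATF4-deficient neurons with vehicle, and 7.73 and 7.72 in those with arsenite. In each genotype all arsenite arrays were higher, and the averaged difference was 0.42 ± 0.07 (1.34-fold; limma adjusted p = 0.0129). Cox16, a complex IV assembly factor, was at 8.46 and 8.39, 8.94, 8.77, 8.68 and 8.67, 8.53 and 8.21, and 8.88 and 8.75 in the same order, a difference of 0.39 ± 0.09 (1.31-fold; adjusted p = 0.0355). Tmem126b no longer passed when the fit left out wildtype vehicle replicate 1 (adjusted p = 0.0502) or 2 (0.06) or ATF4-deficient vehicle replicate 1 (0.0525). Cox16 no longer passed when it left out wildtype vehicle replicate 1 (0.102) or 2 (0.126), wildtype arsenite replicate 2 (0.068) or 3 (0.0511), ATF4-deficient vehicle replicate 2 (0.116), or ATF4-deficient arsenite replicate 1 (0.0861) or 2 (0.0725). Among 13 regulators of mitochondrial biogenesis, 11 mitochondrial chaperones and proteases, and 6 electron carriers and further subunits, 0 passed in any comparison. The list medians lay between -0.097 and 0.117. No mitochondrially encoded subunit was measured by symbol (0 genes).

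In ATF4-deficient neurons with vehicle, replicate 2 was lower than replicate 1 for 77 of the 87 genes (88.5%, against 52.3% of all genes). With arsenite it was lower for 50 (57.5%), which is near the 58.6% of all genes. Replicate 2 was lower in both treatments for 48 genes (55.2%, against 35.8% of all genes), and by more than 0.3 log2 in both for 12 (13.8% against 2.21%). The reverse, more than 0.3 log2 higher in both, held for 0 of 87 and for 2.09% of all genes. The 12 were Cox6a1, Cox8a, Cox5b and Cox6b1 of complex IV, Atp5d, Atp5mpl, Atp5h and Atp5g2 of complex V, Ndufs7, Ndufa4 and Ndufc1 of complex I, and Sdhd. For Cox6a1, replicate 2 minus replicate 1 was -0.63 with vehicle and -0.59 with arsenite. Atp5mpl, a small membrane subunit, went from 9.47 to 8.65 with vehicle and from 9.11 to 8.65 with arsenite. Among the 17 genes of complex IV, 13 were lower in replicate 2 in both treatments, and among the 8 assembly factors 2 were. No test was made of this gap, which was noticed in the data.

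Other measures moved with the same arrays. The astrocyte marker mean went from 7.72 to 7.27 between replicates 1 and 2 with vehicle and from 7.59 to 7.22 with arsenite, and the neuron marker mean from 10.7 to 10.6 and from 10.7 to 10.6. Xist was at 11.7 and 6.26 with vehicle and at 12.3 and 6.70 with arsenite. The part of these in the gap was not tested. Across the 87 genes the gap with vehicle and that with arsenite correlated at r = 0.60, and across all genes at r = 0.40; both are descriptions over genes that share the same 4 arrays.

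**Figure D5:**
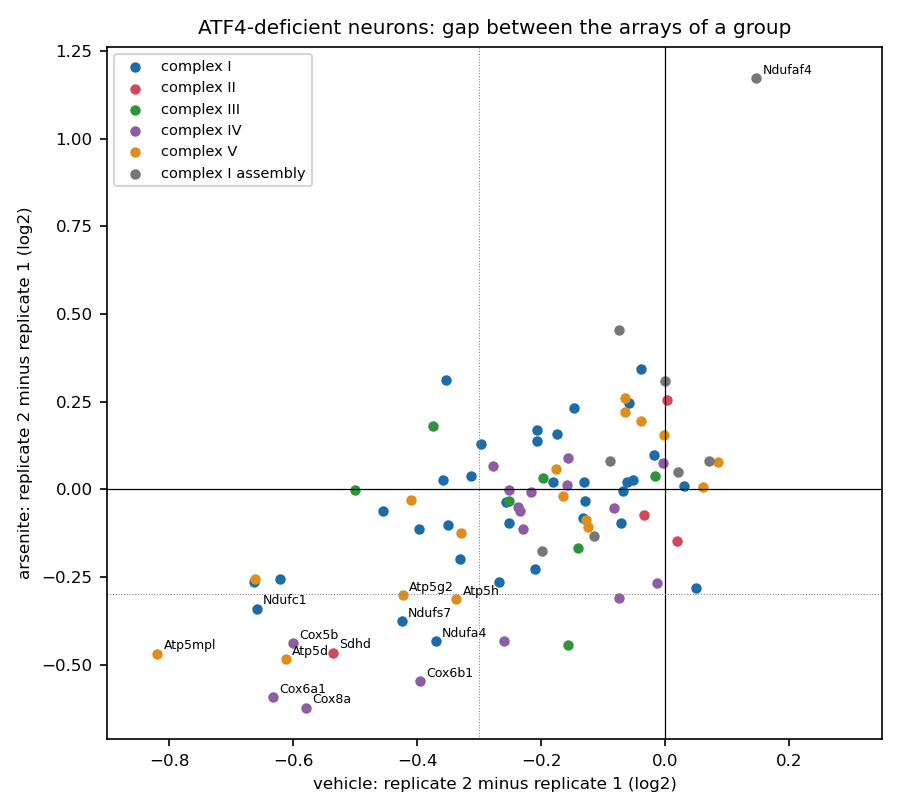
ATF4-deficient replicate 2 minus replicate 1 (log2), with vehicle (x axis) against arsenite (y axis), 1 point per gene of the module, coloured by class. Dotted lines mark -0.3; the 12 named genes at lower left are below it in both treatments, and Ndufaf4 is at the top with a gap of 1.17 under arsenite.

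Probe sets left aside gave no call either. When every annotated probe set was tested on its own, 0 of 9 dimmer single-symbol sets and 0 of 10 sets with several symbols passed in any of the 7 comparisons. The dimmer Ndufa12 set, however, was at 7.69 and 8.69 in ATF4-deficient arsenite against 7.08, 7.48, 7.53 and 7.42 in wildtype arsenite, a difference of 0.82 ± 0.26 (SE; limma adjusted p = 0.278), where the brightest set gave -0.02. Ndufa8 likewise showed 0.47 ± 0.17 (adjusted p = 0.319) on its dimmer set and 0.04 on its brightest. On both dimmer sets ATF4-deficient arsenite replicate 2 was the highest array.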

How the data were processed

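The authors deposited log2 expression values normalised by RMA in Partek 6.6, per the labels and the submitters' processing notes. RMA equalises the arrays' distributions, so a shift shared by most transcripts is removed, and its median fit can give arrays exactly equal values, as for 25 of the 87 genes. Platform annotation gave 23521 of 41345 probe sets 1 symbol, and the brightest per gene was kept (22180 genes, no filter on dim genes). One limma model (limma 3.58.1, R 4.3.3) took a mean for each of the 4 groups (6 residual degrees of freedom) and was tested on simulated data. It gave 7 contrasts, each Benjamini-Hochberg adjusted over all genes at 0.05, with 95% intervals for single genes. Groups came from the titles. The labels do not say that replicate numbers are shared between groups, so the numbers were not taken as pairs. Deviations from the group mean correlated between same-numbered arrays of different groups at -0.056 to 0.40 over all genes. The highest value, 0.40, was between ATF4-deficient vehicle and arsenite, where it was 0.60 over the 87 genes. With 2 arrays in each of these groups, these are the correlations of the replicate gap given above and no separate check. The members and lists were chosen with earlier results of these data known. Named were the highest and lowest gene of each complex in a contrast, tissue-restricted isoforms and their partners, Atf4 and called list genes; others are said to be singled out. Motifs were searched in RefSeq windows with Python 3.11.15. The number of arrays limits precision. Scanner files were not analysed here.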

Additional observations from a re-analysis of the deposited data

Results flagged for a closer look

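In the 4 wildtype arsenite arrays, 11 of 96 sets of values held 1 array far from the other 3. The rule flags about 1 in 20 sets of independent, normally distributed values. These sets are not independent and some hold equal values. The share over all genes is not given, so no excess is read from the count. Replicate 1 stood apart for Cox6a2 (7.75), Cox7a2 (9.64), Ndufa4 (10.97), Ndufa6 (9.15) and Uqcrfs1 (6.76). Replicate 4 stood apart for Atp5c1 (8.37), Ndufs3 (7.74) and Uqcrb (10.44), and replicate 2 for Ndufb10 (7.59), Atp5g1 (7.54) and the complex V median (0.053 above the genes' means). For Atp5g1 and Atp5c1 the other 3 arrays held nearly equal values. For 3 of the 87 genes (3.45%, against 2.83% of all genes) every array moved one way in 1 comparison and the opposite way in its counterpart. Cox6a2 did so for arsenite between genotypes and for genotype between treatments, with an interaction of -0.51. Sdha did so in both views too, with an interaction of 0.25, and Ndufs5 for arsenite between genotypes, with an interaction of 0.20. The brighter probe set shared with Ndufs5-ps overlapped in ATF4-deficient neurons, at 7.82 and 7.55 with vehicle and 7.85 and 7.55 with arsenite. None of these interactions passed in limma, where the lowest adjusted p among the 87 genes was 0.753.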

How the results depend on the processing

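The count of respiratory chain genes past the threshold was 0 in each of the 7 comparisons under every one of 18 alternative settings that could be fitted (fits on the compared groups alone exist for 4 comparisons). Over the named respiratory chain genes the lowest adjusted p in any setting was 0.0606. Leaving out 1 array at a time put the median over the 87 genes between -0.066 and 0.125 for arsenite in ATF4-deficient neurons, -0.151 and 0.057 for genotype under vehicle, and -0.056 and 0.154 for the interaction, with the extremes from the ATF4-deficient vehicle arrays. The same step changed the sign of named genes, with ranges of -0.100 to 0.178 (Sdhc) and -0.045 to 0.171 (Atp5e) for arsenite in wildtype, where Atp5e was also -0.030 with probe sets averaged. For arsenite in ATF4-deficient neurons they were -0.396 to 0.139 (Sdhd), -0.473 to 0.027 (Uqcrc1) and -0.599 to 0.034 (Cox6a1). For genotype under vehicle they were -0.647 to 0.016 (Ndufa3), -0.029 to 0.166 (Sdhb) and -0.269 to 0.0098 (Sdhc). Sdhd ranged from -0.387 to 0.079 for genotype under arsenite and from -0.330 to 0.206 for the interaction. For arsenite averaged over genotypes the ranges were -0.032 to 0.108 (Sdhc), -0.231 to 0.036 (Sdhd) and -0.022 to 0.104 (Uqcrb). Ndufaf4 ranged from -0.309 to 0.028 for arsenite in wildtype, -0.777 to 0.395 in ATF4-deficient neurons, and -0.472 to 0.699 for genotype under arsenite. The cause was not tested. With the replicate number as a block, 0 of 87 genes passed in any comparison and the medians were 0.027, 0.035, -0.055, -0.048, 0.0016, 0.020 and -0.056, in the order arsenite in wildtype, arsenite in ATF4-deficient neurons, genotype under vehicle, genotype under arsenite, interaction, arsenite averaged and genotype averaged. Replicate numbers 3 and 4 occur only in wildtype arsenite, so the block fitted those arrays exactly and they added nothing to any difference. Residual degrees of freedom fell from 6 to 3. The changes in calls therefore mix the block with the loss of those arrays. The block moved the calls over all genes from 107 to 17, 256 to 286, 96 to 165, 76 to 4, 0 to 0, 682 to 759 and 404 to 516. Over the other settings those calls ranged from 0 to 186 for arsenite in wildtype, 0 to 339 in ATF4-deficient neurons, 0 to 228 for genotype under vehicle, 1 to 92 under arsenite, 242 to 884 for arsenite averaged and 58 to 528 for genotype averaged. With 2 arrays in 3 of the groups, the number of arrays limits every value.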
